A study of Mus musculus with 24 samples.

Results

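The CD45+ libraries of *Hoil1*-/-*Il4ra*ΔIEC mice, which lack IL-4Rα in intestinal epithelial cells (IECs), were compared with those of *Hoil1*-/-*Il4ra*f/f mice, which keep it. These were 6 of the 24 RNA-seq libraries of the series, chosen by their labels: libraries 16, 17 and 24 from *Hoil1*-/-*Il4ra*ΔIEC mice and libraries 13, 14 and 15 from *Hoil1*-/-*Il4ra*f/f mice. The authors left libraries 13 and 24 out of their own sample list after a principal component analysis, so results with all 6 libraries are followed, for the main genes and the gene lists, by those with the 4 that remain. All mice carried *Il4ra* flanked by loxP sites, and those labeled *Il4raflox/flox+Vil1cre* also carried Cre under the villin (*Vil1*) promoter, which is active in the intestinal epithelium and not in leukocytes. The mice of both compared groups were also *Hoil1*-/-, a hypomorphic allele that leaves a short N-terminal fragment of HOIL1 at a low level. The *Hoil1*-/-*Il4ra*f/f mice were 9.0, 9.9 and 9.4 weeks old (libraries 13, 14 and 15), and the *Hoil1*-/-*Il4ra*ΔIEC mice 9.6, 9.6 and 9.1 weeks (libraries 16, 17 and 24). From the whole ileum without Peyer's patches, the lamina propria cells and part of the epithelial fraction were pooled, and live CD45+ cells were sorted. The same contrast in *Hoil1*+/+ CD45+ cells, also with 3 libraries against 3, served to ask whether the effect differed between the *Hoil1* genotypes. The *Hoil1*+/+*Il4ra*f/f mice were 9.1, 9.9 and 9.0 weeks old (libraries 12, 18 and 19). The *Hoil1*+/+*Il4ra*ΔIEC mice were 9.7, 9.7 and 9.0 weeks old (libraries 20, 21 and 22).

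HOIL1, encoded by *Rbck1*, forms the linear ubiquitin chain assembly complex (LUBAC) with HOIP and SHARPIN, which attaches linear ubiquitin chains to proteins of the TNF receptor and other pathways and so helps to activate NF-κB and to restrain cell death. IL-4Rα is the shared receptor chain of IL-4 and IL-13 and signals through STAT6. In the small intestine, IL-13 from group 2 innate lymphoid cells (ILC2) acts on epithelial progenitors and promotes goblet and tuft cells. Tuft cells in turn make IL-25, which activates ILC2. The comparison therefore asks whether the leukocytes of *Hoil1*-/- mice differ when the epithelium can no longer receive IL-4 and IL-13.

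Counts on genes were 27.2, 52.3 and 41.7 M in libraries 13, 14 and 15 and 28.6, 14.9 and 32.4 M in libraries 16, 17 and 24. Values are CPM, that is, counts per 1000000 of a library size that was scaled by the TMM method. Libraries 13 and 24 had counts for 13534 and 12847 genes, against 15279 to 16269 in the other 4 libraries, and lay apart from them and from each other in multidimensional scaling. Immunoglobulin genes took 12.5, 20.8 and 44.0% of the counts of libraries 13, 14 and 15 and 20.1, 12.4 and 33.6% of those of libraries 16, 17 and 24. *Xist* and the Y-linked genes showed that libraries 13, 14 and 17 came from female and 15, 16 and 24 from male mice, so the groups were not balanced for sex. *Ptprc*, which encodes CD45, was at 408, 557 and 538 CPM in libraries 13, 14 and 15 and at 492, 506 and 228 CPM in libraries 16, 17 and 24. *Rbck1* (chr2, minus strand) was at 4.72, 9.13 and 4.74 CPM in *Hoil1*-/-*Il4ra*f/f and 13.9, 6.04 and 7.08 CPM in *Hoil1*-/-*Il4ra*ΔIEC libraries, against 79.5 to 137 CPM in the 6 *Hoil1*+/+ libraries. Every *Hoil1*-/- library thus lay far below every *Hoil1*+/+ library, as labeled. The deletion of *Il4ra* itself could not be checked here, because Cre was not directed at CD45+ cells. *Il4ra* was at 136, 79.4 and 78.6 CPM in libraries 13, 14 and 15 and at 258, 238 and 93.8 CPM in libraries 16, 17 and 24.

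Of 16060 genes tested with the quasi-likelihood test of edgeR, none passed an adjusted p of 0.05 (0 called, 0%). At an unadjusted p under 0.05, 326 genes were higher in *Hoil1*-/-*Il4ra*ΔIEC cells (2.03% of those tested) and 412 lower (2.57%). The 3 *Hoil1*-/-*Il4ra*ΔIEC libraries all lay above the 3 *Hoil1*-/-*Il4ra*f/f libraries for 522 genes (3.25%) and all below them for 701 (4.36%). The smallest adjusted p was 0.565, shared by *Muc3*, *Cdhr5* and *Ang4*, and the median log2 fold change over all genes was -0.03. In the 4 libraries of the authors' sample list, none of 17029 genes passed (0%), while 619 were higher (3.63%) and 578 lower (3.39%) at an unadjusted p under 0.05. In what follows, genes are therefore described by their values, and the count of a list's genes with an unadjusted p under 0.05 from this test is set beside these shares. The adjusted p of every gene named and tested is at least 0.565 with all 6 libraries. The likelihood ratio and exact tests of edgeR and DESeq2 did call genes, between 9 and 105 in all, and these are given with the alternatives at the end.

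Several of the genes named in the lower direction were genes of the intestinal epithelium. *Clca1* (ENSMUSG00000028255.6, chr3:145003817-145032776 of GRCm38), a secreted goblet cell protein, was at 110.0, 10.2 and 116 CPM in libraries 13, 14 and 15 and at 3.55, 2.29 and 0.235 CPM in libraries 16, 17 and 24. The groups did not overlap, which was a condition for naming the gene, although library 14 was roughly an order of magnitude below libraries 13 and 15. The log2 difference of *Clca1* was -5.28 with a standard error of 1.24 (adjusted p = 0.931 from edgeR). It was -4.41 (standard error 1.33) without libraries 13 and 24. *Ang4* (ENSMUSG00000060615.5, chr14:51763878-51773590), an antimicrobial ribonuclease of goblet and Paneth cells, was at 105, 15.5 and 13.3 CPM in libraries 13, 14 and 15 and 2.10, 1.91 and 2.94 CPM in libraries 16, 17 and 24. Its group means were 44.6 ± 52.4 CPM (SD, n = 3) and 2.31 ± 0.546 CPM (SD, n = 3), with library 13 well above the rest. The log2 difference of *Ang4* was -4.26 with a standard error of 0.77 (adjusted p = 0.565 from edgeR). Without libraries 13 and 24 it was -2.83 (standard error 0.59), so the lower level of *Ang4* did not rest on those libraries. The 6 *Hoil1*+/+ libraries had only 1.07 to 2.15 CPM of *Ang4*, whatever their *Il4ra* genotype.

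For 4 of these genes the *Hoil1*-/-*Il4ra*ΔIEC libraries held no count at all. The transmembrane mucin *Muc3* (ENSMUSG00000037390.12, chr5:137134922-137149322) was at 8.11, 7.35 and 10.6 CPM in libraries 13, 14 and 15. Against the level of 3 counts over the whole group (0.0396 CPM), its mean was at least 220.0-fold lower in libraries 16, 17 and 24. *Cdhr5* (ENSMUSG00000025497.15, chr7:141269083-141276786), a cadherin of the brush border, was at 9.89, 6.37 and 16.6 CPM for the *Hoil1*-/-*Il4ra*f/f group. Its mean was at least 277-fold lower in the *Hoil1*-/-*Il4ra*ΔIEC libraries. Neither was carried by a single *Hoil1*-/-*Il4ra*f/f library. *Gsdmc4* (chr15:63891264-63912297), a gasdermin of the gut epithelium, was at 49.2, 2.31 and 8.70 CPM and *Pla2g4c* (chr7:13324655-13360672), a cytosolic phospholipase A2, at 36.8, 1.80 and 6.97 CPM in libraries 13, 14 and 15. Both were thus highest in library 13 and lowest in library 14. Taken from the mean of libraries 13, 14 and 15, which library 13 raised, they were at least 507-fold and at least 384-fold lower in the *Hoil1*-/-*Il4ra*ΔIEC libraries. These folds would be smaller without library 13, and no such fold was computed without libraries 13 and 24 for any of the 4 genes. *Pla2g4c* also had no count in any of the 6 *Hoil1*+/+ libraries, while *Muc3* was at 0.909 to 9.40, *Cdhr5* at 1.02 to 20.5 and *Gsdmc4* at 0 to 5.70 CPM there.

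The goblet cell list held 12 genes, of which 11 passed the filter on low counts. Of these, 6 were lower at an unadjusted p under 0.05 (against 2.57% of all genes) and none higher, and the median log2 fold change was -3.32 (all genes: -0.03). For 7 the *Hoil1*-/-*Il4ra*ΔIEC libraries lay all below the others, against 4.36% of all genes. *Tff3*, a trefoil peptide that protects the mucosa, was at 65.7, 12.6 and 50.7 CPM in libraries 13, 14 and 15 and 3.80, 6.32 and 2.82 CPM in libraries 16, 17 and 24 (log2 fold change -3.32, standard error 0.91, and -2.63 without libraries 13 and 24). *Spink4*, a secreted protease inhibitor, was at 90.5, 12.6 and 12.2 CPM and 6.21, 0.381 and 2.35 CPM, with the highest value again in library 13. Without library 13 its log2 fold change was -2.05, and without libraries 13 and 24 it was -1.89, against -3.67 with all. *Fcgbp*, a mucus protein, was at 11.99, 3.08 and 138 CPM and 3.08, 4.30 and 4.15 CPM. Library 15 alone carried its difference, and without that library the log2 fold change went from -3.73 to -0.997. *Muc2*, the main gel-forming mucin, was at 19.6, 3.64 and 38.6 CPM and 2.83, 6.26 and 0 CPM, and the groups overlapped. *Retnlb*, an IL-13-induced goblet cell product, had no count in any of the 6 libraries. Summed over the list, goblet transcripts took 517, 102 and 472 CPM in libraries 13, 14 and 15 and 54.4, 50.9 and 21.6 CPM in libraries 16, 17 and 24. In the *Hoil1*+/+ libraries the sums were 31.3, 105 and 65.3 CPM in *Il4ra*f/f and 164, 235 and 41.6 CPM in *Il4ra*ΔIEC mice, so the *Hoil1*-/-*Il4ra*ΔIEC libraries lay within the range of the *Hoil1*+/+*Il4ra*f/f libraries or just under it. Without libraries 13 and 24, 4 of 11 were lower at that threshold (3.39% of all genes), with a median of -2.38.

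**Figure D1:**
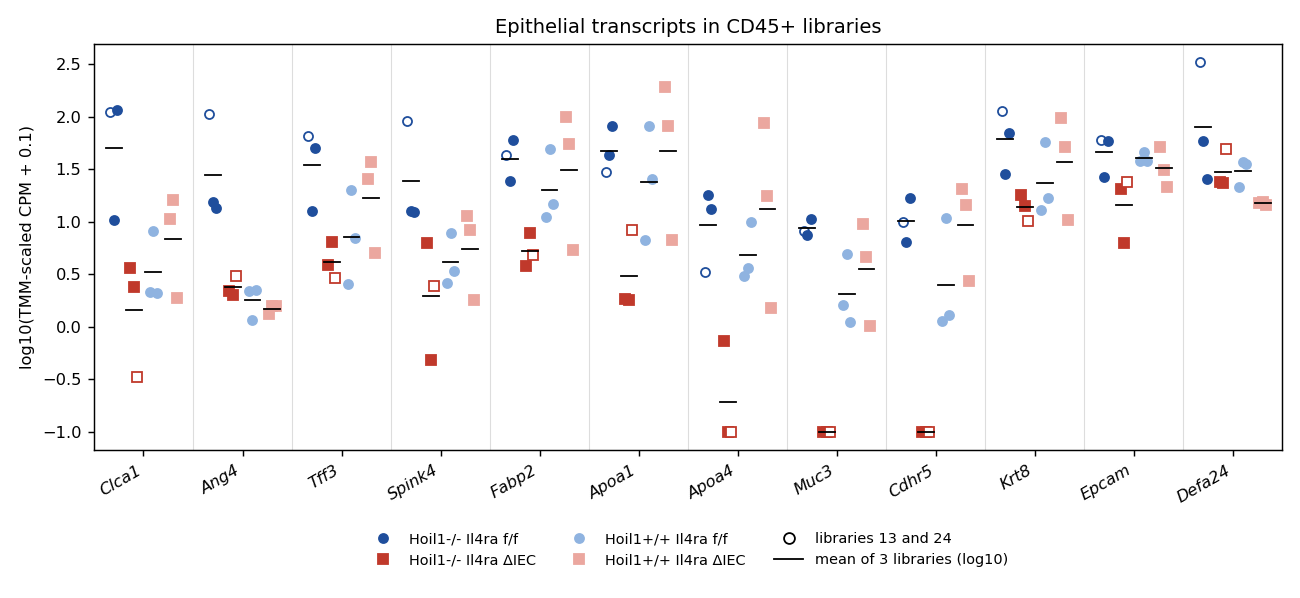
Levels of 12 epithelial genes in each of the 12 CD45+ libraries, as log10 of CPM plus 0.1, with groups in color, open symbols for libraries 13 and 24 and a line at the mean of each group's log10 values; a symbol at -1 is a library with no count. The *Hoil1*-/-*Il4ra*ΔIEC libraries lie below the *Hoil1*-/-*Il4ra*f/f libraries for 11 of the genes shown and overlap them for *Defa24*, while *Ang4* is low in all *Hoil1*+/+ libraries. *Clca1*, *Ang4*, *Muc3* and *Cdhr5* were named for their lack of overlap.

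Genes of absorptive enterocytes, which take up nutrients, had the same direction. Of 14 in the list, all had a negative log2 fold change, and the median was -3.06. At an unadjusted p under 0.05, 7 were lower, against 2.57% of all genes. For 6 the *Hoil1*-/-*Il4ra*ΔIEC libraries lay all below the others, against 4.36% of all genes. *Fabp2*, the intestinal fatty acid binding protein, was at 43.0, 24.4 and 59.5 CPM in libraries 13, 14 and 15 and 3.67, 7.73 and 4.74 CPM in libraries 16, 17 and 24 (log2 fold change -2.98, standard error 0.88). *Apoa1*, an apolipoprotein of high-density lipoprotein, was at 29.4, 43.4 and 80.8 CPM and 1.73, 1.69 and 8.26 CPM (log2 fold change -3.71, standard error 1.18). *Apoa4*, an apolipoprotein of chylomicrons, was at 3.21, 18.1 and 13.2 CPM and was not counted in libraries 17 and 24, with 0.628 CPM in library 16. In contrast, *Anpep*, a brush border peptidase that myeloid cells also express, was at 84.0, 62.5 and 216 CPM and 86.0, 73.6 and 77.1 CPM, and its groups overlapped. Without libraries 13 and 24, 5 of the 14 genes were lower at that threshold (3.39% of all genes), and the median was -2.82.

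Genes shared by all epithelial cells had a smaller median difference. Of 10 in the list, 4 were lower at an unadjusted p under 0.05 (2.57% of all genes) and 3 lay all below (4.36% of all genes), with a median of -1.84. *Epcam*, an epithelial adhesion molecule, was at 60.1, 26.8 and 58.9 CPM in libraries 13, 14 and 15 and 20.2, 6.15 and 23.8 CPM in libraries 16, 17 and 24 (log2 fold change -1.54, standard error 0.50). The keratin *Krt8* was at 113, 28.3 and 70.4 CPM and 17.8, 13.9 and 10.1 CPM (log2 fold change -2.34, standard error 0.79), *Krt18* at 16.4, 3.22 and 22.9 CPM and 4.55, 1.91 and 2.66 CPM (log2 fold change -2.21, standard error 0.74), and *Krt19* at 90.1, 7.40 and 33.2 CPM and 14.2, 6.37 and 4.19 CPM (log2 fold change -2.40, standard error 0.98). *Krt8* did not overlap between the groups, while *Krt18* and *Krt19* did. *Vil1*, whose promoter drove Cre, was at 12.1, 6.24 and 26.5 CPM and 1.88, 3.27 and 0 CPM (log2 fold change -3.13, standard error 1.34). Without library 13, 2 of these 10 genes were lower at that threshold (2.25% of all genes), and without libraries 13 and 24 it was *Epcam* alone (3.39%). These are not genes of leukocytes, and how much epithelial RNA reached each sorted library was not measured apart from these genes. In such bulk libraries, fewer cells of a type and less RNA per cell cannot be told apart.

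Paneth cell genes, in contrast, rested on library 13. *Defa24*, a defensin, was at 329, 58.8 and 25.7 CPM in libraries 13, 14 and 15 and at 23.7, 23.1 and 49.0 CPM in libraries 16, 17 and 24, and *Defa30* at 167, 36.9 and 3.62 CPM and 8.79, 8.66 and 4.62 CPM. Library 13 was far above the other 5 libraries for both, and the groups overlapped. Of 9 genes tested, these 2 were lower at an unadjusted p under 0.05 with all libraries, 5 without library 14, 4 without library 15, and 0 without library 13 or without libraries 13 and 24, where the median moved from -1.92 to -0.81. In these fits 2.25 to 3.39% of all genes were lower. Of 11 enteroendocrine genes, 4 were tested, all under 5 CPM in every one of the 6 libraries. *Chga*, *Chgb* and *Nts* had no count in the *Hoil1*-/-*Il4ra*ΔIEC libraries, and with such genes at their bound the median of the 4 was -4.76.

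Tuft cell genes were close to the limit of detection. *Il25* was not counted in a single CD45+ library, *Dclk1* was found in library 15 alone of the 6 (1.52 CPM), and *Trpm5*, the cation channel of tuft cells, was at 3.77, 1.20 and 1.70 CPM in libraries 13, 14 and 15 and 0, 0.545 and 0 CPM in libraries 16, 17 and 24. *Pou2f3*, the transcription factor that defines tuft cells, was at or under 1 CPM in all 6 libraries. Of the 23 genes in the list, 19 were tested. *Rgs13*, also a germinal center gene, was the 1 lower at an unadjusted p under 0.05, against 2.57% of all genes. It was at 3.95, 0 and 1.52 CPM in libraries 13, 14 and 15 and had no count in libraries 16, 17 and 24. The list's summed level of 984, 495 and 548 CPM in libraries 13, 14 and 15 and 619, 664 and 614 CPM in libraries 16, 17 and 24 came mainly from genes that leukocytes also express, such as *Ptgs1*, the cyclooxygenase 1 gene, at 351, 135 and 187 CPM and 186, 192 and 205 CPM. Sums of this list therefore do not measure tuft cells in CD45+ libraries.

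Members of the NF-κB pathway were among the genes that stood higher in *Hoil1*-/-*Il4ra*ΔIEC CD45+ libraries. NF-κB dimers of Rel proteins are held in the cytoplasm by inhibitors such as IκBα (*Nfkbia*) and IκBε (*Nfkbie*), and they drive transcription of these same inhibitors, which ends the response. The 150 bases before the start of *Nfkbia*, *Nfkbie* and *Rel* are shown because each holds the kappaB consensus, the site that NF-κB dimers recognize (RefSeq, GRCm38.p6, 5′ to 3′ on the gene's strand, matches on either strand in capitals).
Nfkbia, chr12:55492648-55492797, minus strand: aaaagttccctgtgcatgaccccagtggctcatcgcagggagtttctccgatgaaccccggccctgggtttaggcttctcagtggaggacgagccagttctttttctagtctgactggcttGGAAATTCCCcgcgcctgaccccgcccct
Nfkbie, chr17:45555550-45555699, plus strand: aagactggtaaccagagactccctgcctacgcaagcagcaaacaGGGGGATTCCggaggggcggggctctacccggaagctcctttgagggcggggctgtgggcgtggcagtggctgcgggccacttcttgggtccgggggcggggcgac
Rel, chr11:23770970-23771119, minus strand: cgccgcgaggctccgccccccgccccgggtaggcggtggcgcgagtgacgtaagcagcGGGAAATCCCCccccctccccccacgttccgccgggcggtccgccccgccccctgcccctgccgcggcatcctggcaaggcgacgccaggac
In the 250 bases before the start, 5 of the 11 listed NF-κB genes with a sequence held the consensus, against 2225 of 27025 genes (8.23%), and in *Rel* 2 matches overlapped. The consensus was also found in 3 of 13 enterocyte and 0 of 6 goblet genes with a sequence. Among genes named by their p and lack of overlap, 3 of 6 higher and 1 of 6 lower genes with a sequence held it. These are matches of letters in a window and not measured sites.

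All 14 genes of the NF-κB list had a positive log2 fold change, with a median of 0.98, and 7 of them were higher at an unadjusted p under 0.05, against 2.03% of all genes. *Nfkbie* was at 50.1, 68.1 and 59.0 CPM in libraries 13, 14 and 15 and 127, 129 and 86.3 CPM in libraries 16, 17 and 24 (log2 fold change 0.95, standard error 0.26). *Nfkbia* was at 409, 426 and 160.1 CPM and 767, 896 and 584 CPM (log2 fold change 1.18, standard error 0.43), and the adhesion molecule *Icam1* at 91.5, 92.5 and 85.6 CPM and 215, 320.4 and 112 CPM (log2 fold change 1.26, standard error 0.41). The groups did not overlap for these 3 of the 14 genes, against 3.25% of all genes, with library 24 the lowest of its group for each. For the remaining 11, libraries 16 and 17 lay above the *Hoil1*-/-*Il4ra*f/f libraries and library 24 lay among or below them. *Rel*, the c-Rel subunit, was at 53.9, 89.1 and 65.7 CPM in libraries 13, 14 and 15 and 240.3, 321 and 35.5 CPM in libraries 16, 17 and 24 (log2 fold change 1.51, standard error 0.64). *Tnf* was at 34.6, 24.2 and 20.3 CPM and 98.9, 93.0 and 24.1 CPM (log2 fold change 1.45, standard error 0.56), and *Bcl3*, an IκB family coactivator, at 54.5, 79.1 and 45.2 CPM and 141, 188 and 59.8 CPM (log2 fold change 1.12, standard error 0.40). *Tnfaip3*, which encodes the deubiquitinase A20, was at 143, 605 and 117 CPM and 1100, 1153 and 87.0 CPM, so library 14 was also high, and its unadjusted p was over 0.05. *Rel* and *Tnf* are outside the rule for named genes and were picked after their values were seen.

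Which libraries entered decided how many NF-κB genes stood out. Without libraries 13 and 24, 9 of 14 were higher at an unadjusted p under 0.05, against 3.63% of all genes, and the median was 1.35. Leaving out library 24 alone gave 11 of 14, and leaving out library 14 gave 8. Leaving out library 13 or 16 gave 4, leaving out library 15 gave 2 and leaving out library 17 gave 1. Of all genes, 1.21 to 3.47% were higher at that threshold in these fits. *Nfkbie*, which was named for its lack of overlap, kept the same direction in each of these, with log2 fold changes from 0.84 to 1.11 over all alternatives. Immediate-early and heat-shock genes, which cell isolation can induce, also had higher sums in libraries 16 and 17. The 17 genes of that list summed to 10520, 10220 and 3668 CPM in libraries 13, 14 and 15 and 13630, 15460 and 8919 CPM in libraries 16, 17 and 24. In *Hoil1*+/+ libraries the sums were 12740, 9621 and 30320 CPM in *Il4ra*f/f and 9253, 10170 and 23960 CPM in *Il4ra*ΔIEC mice. The median log2 fold change in *Hoil1*-/- libraries was 0.53. At that threshold 1 gene, *Nr4a1*, was higher (2.03% of all genes), at 133, 376 and 124 CPM and 1040, 1484 and 111 CPM. Without libraries 13 and 24, 2 were higher (3.63% of all genes), and without library 15 or 17 none was. The part of cell handling in the NF-κB values was not tested. In the *Hoil1*+/+ libraries the NF-κB sums were 1815, 1930 and 3720 CPM in *Il4ra*f/f and 2330, 2703 and 3316 CPM in *Il4ra*ΔIEC mice, against 1439, 2244 and 1135 CPM in libraries 13, 14 and 15 and 4071, 4553 and 1501 CPM in libraries 16, 17 and 24. *Hoil1*+/+ libraries thus spanned much of the same range.

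**Figure D2:**
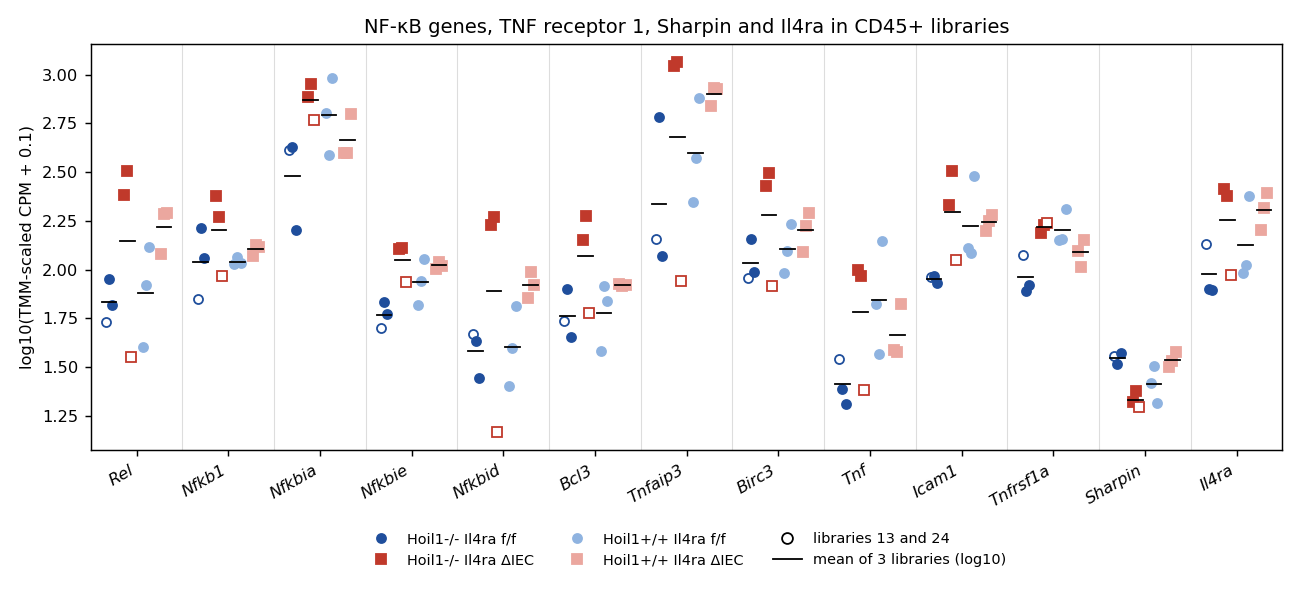
Levels of NF-κB genes, *Tnfrsf1a*, *Sharpin* and *Il4ra* in each of the 12 CD45+ libraries, as log10 of CPM plus 0.1, with open symbols for libraries 13 and 24 and a line at the mean of each group's log10 values. Libraries 16 and 17 lie above all *Hoil1*-/-*Il4ra*f/f libraries for *Rel*, *Nfkbia*, *Nfkbie*, *Bcl3*, *Birc3*, *Tnf* and *Icam1*, library 24 does so for *Nfkbia*, *Nfkbie* and *Icam1* among these, and *Sharpin* is lower in all 3 *Hoil1*-/-*Il4ra*ΔIEC libraries.

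Other genes of TNF receptor and LUBAC signaling differed one by one. *Tnfrsf1a*, TNF receptor 1, was at 119, 77.2 and 83.6 CPM in libraries 13, 14 and 15 and 154, 169.8 and 174 CPM in libraries 16, 17 and 24 (log2 fold change 0.83, standard error 0.25). It did not overlap (3.25% of all genes lay all above). It was the 1 gene of 11 in the cell death list that was higher at an unadjusted p under 0.05 (2.03% of all genes). Without libraries 13 and 24 its log2 fold change was 1.02. *Sharpin* (ENSMUSG00000022552.15, chr15:76347040-76351111), the LUBAC subunit that partners HOIL1, was lower, at 35.9, 32.8 and 37.4 CPM and 20.8, 23.8 and 19.6 CPM (log2 fold change -0.72, standard error 0.23). Its groups did not overlap either (4.36% of all genes lay all below), and its log2 fold change was -0.64 without libraries 13 and 24. *Rnf31*, which encodes HOIP, the catalytic subunit, was at 48.1, 45.0 and 48.4 CPM and 51.4, 49.5 and 43.2 CPM and overlapped. *Sharpin* was the 1 gene of 9 in the LUBAC list at that threshold (2.57% of all genes were lower). Without libraries 13 and 24 *Tnfaip3* and *Spata2* were also past it, both higher (3.63% of all genes). A single gene past the threshold in lists this short is not read as a result about the list. *Ifit1*, an interferon-stimulated gene that binds foreign RNA, was at 14.9, 12.8 and 11.6 CPM in libraries 13, 14 and 15 and 5.05, 4.74 and 5.36 CPM in libraries 16, 17 and 24 (log2 fold change -1.37, standard error 0.39). The other 14 genes of the interferon list did not reach that threshold (2.57% of all genes were lower), with a list median of -0.19. The log2 fold change of *Ifit1* was -1.30 without libraries 13 and 24, and 2 genes of this list were higher there (3.63% of all genes).

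*Il4ra* transcripts were not lower in CD45+ cells of *Hoil1*-/-*Il4ra*ΔIEC mice. From the values above, libraries 16 and 17 stood well above libraries 13, 14 and 15, and library 24 lay among the latter. The log2 fold change was 1.01 (standard error 0.45) with all libraries and 1.66 (standard error 0.43) without libraries 13 and 24. Of 12 genes tested in the IL-4 and IL-13 receptor pathway, *Il4ra* was the 1 higher at an unadjusted p under 0.05 (2.03% of all genes). None was when library 14, 15, 16 or 17 was left out. *Stat6*, the transcription factor downstream of IL-4Rα, was at 94.1, 119 and 111 CPM in libraries 13, 14 and 15 and 129, 152 and 72.6 CPM in libraries 16, 17 and 24. *Il13ra1*, which pairs with IL-4Rα to bind IL-13, was at 24.2, 25.7 and 27.2 CPM and 30.6, 27.5 and 59.5 CPM, separated by a narrow margin (log2 fold change 0.61, standard error 0.40). The decoy receptor *Il13ra2* had no count.

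With all 6 libraries, the groups overlapped for ILC2 genes and for *Il4*, *Il5* and *Il13*. *Il5*, which encodes the eosinophil growth factor IL-5, was at 3.49, 12.5 and 1.08 CPM in libraries 13, 14 and 15 and 6.34, 8.39 and 14.1 CPM in libraries 16, 17 and 24 (log2 fold change 0.75, standard error 1.35). *Il13* was at 11.8, 32.5 and 2.85 CPM and 36.9, 40.1 and 5.05 CPM (log2 fold change 0.80, standard error 1.23). Thus *Il13* was high in libraries 14, 16 and 17 and low in 15 and 24. *Il4* was at 3.74, 6.74 and 0.836 CPM and 13.1, 14.7 and 0 CPM, with no count in library 24. In the 4 libraries of the authors' sample list, *Il13* and *Il4* were higher in both *Hoil1*-/-*Il4ra*ΔIEC libraries than in both *Hoil1*-/-*Il4ra*f/f libraries. There, 1 of the 7 type 2 cytokine genes tested, *Il10*, was higher at an unadjusted p under 0.05 (3.63% of all genes). The list median was 1.18, against 0.98 with all libraries. For comparison, *Il5* had no count in 5 of the 6 *Hoil1*+/+ libraries and *Il13* was at 0 to 2.92 CPM there. The standard errors of more than 1 log2 unit leave room for changes of several fold in either direction.

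*Nmur1*, the ILC2 receptor for the neuropeptide neuromedin U, was at 22.99, 81.6 and 12.8 CPM in libraries 13, 14 and 15 and 30.7, 17.5 and 13.6 CPM in libraries 16, 17 and 24 (log2 fold change -0.92, standard error 0.64). Library 14 stood above the others, and without it the direction turned, to 0.20. *Klrg1*, a marker of mature ILC2, was at 31.1, 70.0 and 20.3 CPM and 37.2, 27.7 and 31.1 CPM, and likewise its log2 fold change of -0.34 (standard error 0.48) became 0.32 without library 14. *Il17rb*, the IL-25 receptor, was at 20.8, 130.2 and 29.6 CPM and 126, 79.7 and 1.29 CPM, with library 24 far below the rest of its group. *Il1rl1*, the IL-33 receptor, was at 13.98, 29.3 and 14.2 CPM and 45.7, 25.7 and 22.9 CPM, and *Epas1*, which encodes HIF-2α, at 43.0, 234 and 62.1 CPM and 173, 147 and 32.2 CPM. Of the 20 ILC2 genes, 0 had an unadjusted p under 0.05, with or without libraries 13 and 24, and with all libraries the groups overlapped for each of them. Leaving out library 14 alone put 2 of them higher (2.43% of all genes), and leaving out library 15 alone put 1 lower (2.29% of all genes). The summed ILC2 level was 266, 1405 and 427 CPM in libraries 13, 14 and 15 and 1224, 978 and 227 CPM in libraries 16, 17 and 24, so that the 2 libraries the authors left out were the lowest of their groups.

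**Figure D3:**
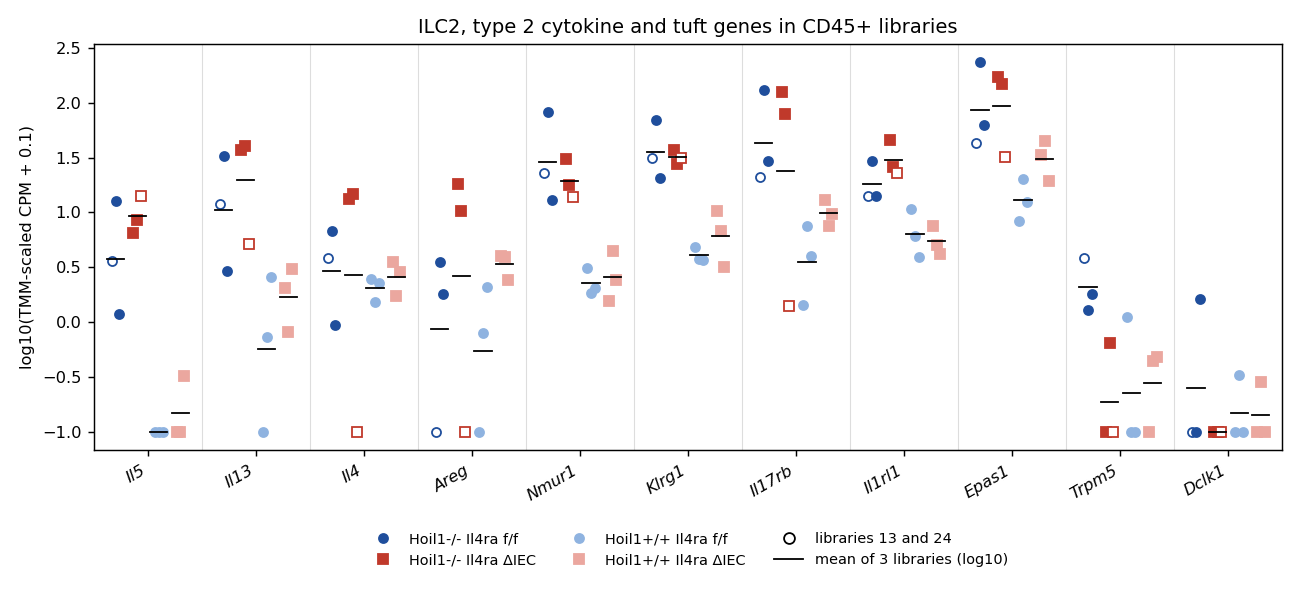
Levels of type 2 cytokine, ILC2 and tuft cell genes in each of the 12 CD45+ libraries, as log10 of CPM plus 0.1, with open symbols for libraries 13 and 24 and a line at the mean of each group's log10 values; a symbol at -1 is a library with no count. The *Hoil1*-/- groups overlap for every gene shown but *Trpm5*, which lies at or under 3.77 CPM, and *Il5*, *Nmur1* and *Klrg1* are lower in *Hoil1*+/+ libraries of both *Il4ra* genotypes.

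*Got1* and *Slc2a1* were among the genes named by the rule in the higher direction. *Got1* (ENSMUSG00000025190.13, chr19:43499752-43524605), the cytosolic aspartate aminotransferase, was at 29.8, 40.6 and 43.9 CPM in libraries 13, 14 and 15 and 122, 123 and 61.5 CPM in libraries 16, 17 and 24 (log2 fold change 1.42, standard error 0.31). *Slc2a1* (ENSMUSG00000028645.11, chr4:119108711-119137983), the glucose transporter GLUT1, was at 48.4, 41.7 and 33.7 CPM and 94.5, 119 and 70.1 CPM (log2 fold change 1.19, standard error 0.28). Both were without overlap, which the rule required. Without libraries 13 and 24 the log2 fold changes were 1.55 (standard error 0.28) and 1.51 (standard error 0.31). Of 12 genes of the integrated stress response, 2 were higher at an unadjusted p under 0.05 with all libraries (2.03% of all genes) and 5 without libraries 13 and 24 (3.63%). Without library 16 it was 1, without library 17 none was higher and 1 was lower, and with the 6 *Hoil1*-/- libraries alone in the fit none passed. *Sesn2*, a sestrin that restrains mTORC1, was at 38.5, 17.2 and 19.8 CPM and 40.3, 55.1 and 38.9 CPM (log2 fold change 0.83, standard error 0.33). *Impact* (ENSMUSG00000024423.5), an inhibitor of the eIF2α kinase GCN2, was at 18.5, 19.6 and 19.7 CPM in libraries 13, 14 and 15 and 62.9, 54.0 and 14.2 CPM in libraries 16, 17 and 24. Libraries 16 and 17 were thus well above the *Hoil1*-/-*Il4ra*f/f libraries, which were close to each other, whereas library 24 was under them all. Its log2 fold change was 1.18 (standard error 0.42) with all libraries and 1.58 (standard error 0.23, adjusted p = 0.411 from edgeR) without libraries 13 and 24. In *Hoil1*+/+ libraries it was at 11.3, 12.9 and 14.2 CPM in *Il4ra*f/f and 28.6, 34.8 and 32.4 CPM in *Il4ra*ΔIEC mice. *Erf*, a repressor of the ETS family named here after its values were seen, had the same form, at 15.8, 27.9 and 16.9 CPM and 100.1, 141 and 19.8 CPM.

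The remaining genes named by the rule came from several pathways. *Sema4c* (ENSMUSG00000026121.13, chr1:36548639-36558349), a semaphorin, was at 7.79, 14.9 and 9.16 CPM in libraries 13, 14 and 15 and 29.4, 23.5 and 32.1 CPM in libraries 16, 17 and 24 (log2 fold change 1.41, standard error 0.28), and spanned 19.5 to 25.2 CPM across *Hoil1*+/+ libraries. *Pias4*, a SUMO ligase, was at 6.18, 12.6 and 13.9 CPM and 29.97, 26.1 and 39.5 CPM (log2 fold change 1.55, standard error 0.35). For both genes library 24 was the highest and library 13 the lowest. *Trip6*, a LIM domain adaptor, was at 2.55, 1.35 and 3.003 CPM and 9.07, 8.50 and 7.04 CPM, and *Usp2*, a ubiquitin-specific protease, at 2.90, 2.36 and 1.36 CPM and 12.2, 10.9 and 7.20 CPM. *1700016P03Rik* was at 6.01, 4.74 and 8.54 CPM and 24.5, 19.4 and 12.4 CPM. On the lower side, *Them6* was at 13.7, 18.5 and 26.2 CPM and 5.71, 7.35 and 6.22 CPM (log2 fold change -1.60, standard error 0.30), against 15.99 to 22.2 CPM across *Hoil1*+/+ mice. *Bola1*, a mitochondrial protein, was at 8.74, 11.4 and 8.88 CPM and 3.45, 1.20 and 1.84 CPM (log2 fold change -2.16, standard error 0.51). *Npc1*, which exports cholesterol from lysosomes, was at 47.7, 39.8 and 51.9 CPM and 23.9, 24.4 and 17.96 CPM (log2 fold change -1.07, standard error 0.25), and *Nsmce1*, a subunit of the SMC5/6 complex, at 44.5, 22.7 and 26.2 CPM and 10.7, 14.4 and 12.5 CPM (log2 fold change -1.31, standard error 0.31). The groups did not overlap for these 4 genes, which was a condition of the rule that named them. Without libraries 13 and 24 the log2 fold changes were -1.76, -2.11, -0.91 and -0.95 in the same order.

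**Figure D4:**
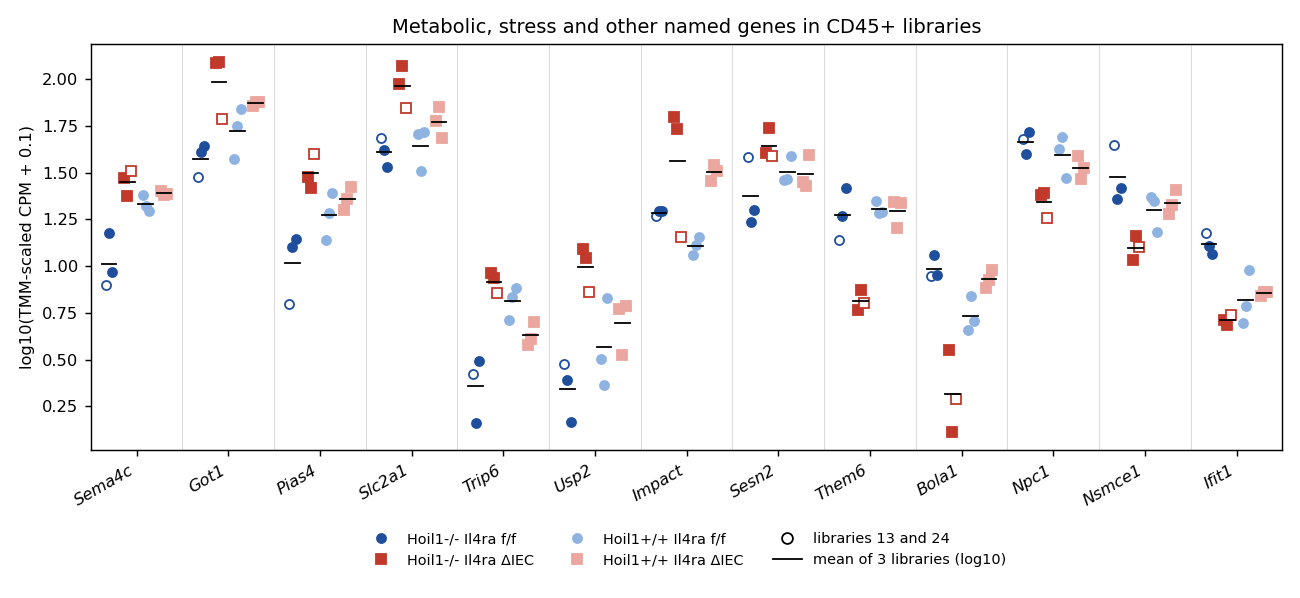
Levels of 13 metabolic, stress and other named genes in each of the 12 CD45+ libraries, as log10 of CPM plus 0.1, with open symbols for libraries 13 and 24 and a line at the mean of each group's log10 values. The *Hoil1*-/- groups are apart for every gene shown except *Impact*, where library 24 lies below the *Hoil1*-/-*Il4ra*f/f libraries, and the gap is narrow for *Sesn2* (38.5 CPM in library 13 and 38.9 CPM in library 24). All genes shown but *Impact*, *Sesn2* and *Ifit1* were named for this lack of overlap.

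Immunoglobulin genes varied widely between single libraries. The variable gene *Igkv9-123* had no count in libraries 13, 14 and 15 and was at 5.49, 1.69 and 507 CPM in libraries 16, 17 and 24. *Igkv13-84* was at 6.54, 43.5 and 37.1 CPM and 151, 496 and 388 CPM (log2 fold change 3.57, standard error 1.00). Closely related variable genes can share reads, so these values are uncertain. Of 107 heavy-chain variable genes tested, 3 were higher and 11 lower at an unadjusted p under 0.05, and of 100 kappa variable genes 8 were higher and 5 lower. Of all genes, 2.03% were higher and 2.57% lower. Without libraries 13 and 24, 0 and 23 of 113 heavy-chain and 5 and 16 of 106 kappa variable genes were higher and lower, against 3.63 and 3.39% of all genes. The heavy-chain median moved from -0.21 to -2.01 there. The sums of the heavy-chain variable genes ran from 9051, 14270 and 59210 CPM in libraries 13, 14 and 15 to 16220, 9286 and 30670 CPM in libraries 16, 17 and 24, with library 15 alone far above. Plasma cell genes other than these, such as *Tnfrsf17*, the receptor BCMA (23.4, 41.5 and 62.0 CPM and 21.4, 13.8 and 52.4 CPM), followed the same libraries.

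Lists of other leukocytes showed few or no members at an unadjusted p under 0.05. All 12 genes of intraepithelial and cytotoxic T cells had a negative log2 fold change, with a median of -1.02, 5 did not overlap (against 4.36% of all genes) and 0 had an unadjusted p under 0.05. *Klrd1*, which encodes CD94, was at 22.4, 20.9 and 30.6 CPM in libraries 13, 14 and 15 and 7.31, 12.2 and 12.8 CPM in libraries 16, 17 and 24 (log2 fold change -1.19, standard error 0.81). *Gzma*, granzyme A, was at 922, 802 and 1526 CPM and 693, 416 and 480.2 CPM, and spanned 122 to 4839 CPM across *Hoil1*+/+ mice. With the 6 *Hoil1*-/- libraries alone in the fit, 4 of the 12 were lower at that threshold (1.29% of all genes), and with age as a covariate 3 were (3.09%). With all libraries, 0 of the tested genes for T cells (12), B cells (12), macrophages (12), alternatively activated macrophages (12), dendritic cells (12), mast cells (11), eosinophils (7), ILC3 (12) and natural killer cells (10) reached that threshold. Likewise, 0 genes did so for type 2 cytokines (7), helper and regulatory T cells (11), plasma cells (12), monocytes and neutrophils (10), MHC class II (10), neuropeptide and lipid mediator receptors (11), endothelium (10), mitosis and DNA replication (17) and mitochondrial respiration (14). In the alarmin list (11 tested) it was *Tslp* alone, which encodes the alarmin TSLP (5.07, 0.253 and 0 CPM and no count), in the germinal center list (7) *Rgs13*, and in the hypoxia list (13) *Slc2a1*. With libraries 13 and 24 left out, the genes past that threshold were 3 lower for plasma cells, 2 higher and 1 lower for ILC3, 1 higher and 2 lower for dendritic cells and 2 lower for mitochondrial respiration. In those libraries 1 gene each was higher for macrophages, alternatively activated macrophages, mast cells, helper and regulatory T cells, germinal center B cells, endothelium and tuft cells, and 3 were higher for hypoxia, including *Slc2a1*. Of all genes, 3.63% were higher and 3.39% lower there. Fibroblast and smooth muscle genes depended on library 13. They summed to 293, 57.1 and 31.7 CPM in libraries 13, 14 and 15 and 108, 183 and 112 CPM in libraries 16, 17 and 24, and 5 of 11, among them *Col3a1*, a fibrillar collagen (39.3, 9.504 and 6.72 CPM and 24.4, 46.6 and 25.1 CPM), were higher at that threshold without libraries 13 and 24, against 0 with them. Markers of epithelium and stroma therefore both moved with the groups in the 4 libraries of the sample list, in opposite directions, and their part in the other results was not tested. Of 20 chemokine and chemokine receptor genes, 1 was higher with all libraries, *Cxcr4* (180.5, 253 and 133 CPM and 540.0, 771 and 133 CPM), and 6 were higher without libraries 13 and 24, but none when library 15, 16 or 17 was left out. Of all genes, 2.03% were higher with all libraries and 3.63% without libraries 13 and 24. Of 12 clock genes, *Cry1* was higher (3.74, 14.7 and 7.18 CPM and 19.7, 21.5 and 21.6 CPM).

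**Figure D5:**
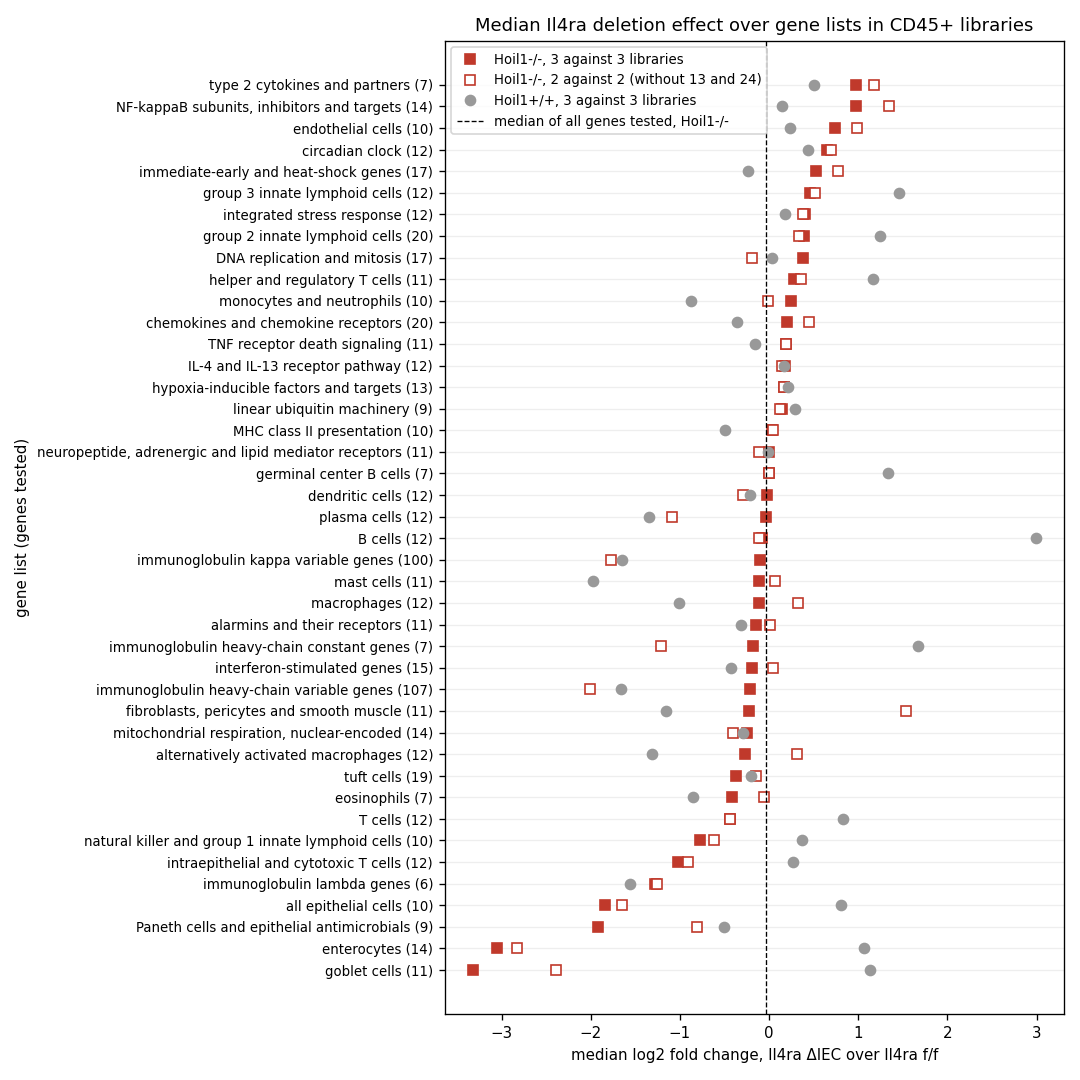
Median log2 fold change of *Il4ra*ΔIEC over *Il4ra*f/f CD45+ libraries for gene lists, each with its number of genes tested, with filled squares for the 3 against 3 *Hoil1*-/- libraries, open squares without libraries 13 and 24, circles for the *Hoil1*+/+ libraries and a dashed line at the median of all genes tested. Goblet and enterocyte lists have the lowest of the medians shown in *Hoil1*-/- cells (-3.32 and -3.06) and medians above 0 in *Hoil1*+/+ cells, while the NF-κB list is at 0.98 and, without libraries 13 and 24, 1.35.

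The effect of *Il4ra* deletion in *Hoil1*-/- cells was set against that in *Hoil1*+/+ cells by the interaction term of the same fit. By *Xist* and the Y-linked genes, *Hoil1*+/+ libraries 12, 18, 19 and 22 came from male and 20 and 21 from female mice. Sex was thus not balanced in either *Hoil1* genotype. Of 16060 genes, 0 passed an adjusted p of 0.05 (0%), and 703 (4.38%) had an unadjusted p under 0.05. The latter count was 1193 of 17029 (7.01%) without libraries 13 and 24, where again 0 passed. With sex as a covariate, 168 genes had a positive and 270 a negative difference at an unadjusted p under 0.05. Without it these counts were 305 and 398. Goblet and enterocyte genes were among the 703, with 6 of 11 and 6 of 14 at that threshold. These and the following values are from the fit with all libraries and are not set beside values without libraries 13 and 24. *Clca1* was at 2.02, 8.15 and 1.99 CPM in libraries 12, 18 and 19 of *Hoil1*+/+*Il4ra*f/f mice and 10.5, 16.1 and 1.79 CPM in libraries 20, 21 and 22 of *Hoil1*+/+*Il4ra*ΔIEC mice, and its 2 log2 fold changes differed by -6.49 (standard error 1.59). For *Muc3* the *Hoil1*+/+ values were 1.51, 4.80 and 1.01 CPM and 9.40, 4.55 and 0.909 CPM (adjusted p of the difference = 1.000 from edgeR). Over the *Hoil1*+/+ libraries the goblet and enterocyte medians were 1.13 and 1.07, although no gene's difference passed the adjusted threshold. Of the NF-κB list, 3 of 14 genes had an interaction p under 0.05. These included *Nfkbia* (difference 1.66, standard error 0.61) and *Tnf* (difference 2.21, standard error 0.79). *Sharpin* differed by -1.11 (standard error 0.32) and *Tnfrsf1a* by 1.23 (standard error 0.36). Of 12 B cell genes, 5 had an interaction p under 0.05, and their summed level was 316, 1040 and 872 CPM and 706, 928 and 517 CPM in the *Hoil1*-/- groups and 512, 282 and 703 CPM and 563, 1316 and 1753 CPM in the *Hoil1*+/+ groups. For this list the median effect was -0.08 in *Hoil1*-/- and 2.99 in *Hoil1*+/+ cells. Of 11 mast cell genes, 4 had an interaction p under 0.05, with median effects of -0.11 in *Hoil1*-/- and -1.97 in *Hoil1*+/+ cells. *Impact* was higher in *Il4ra*ΔIEC libraries of *Hoil1*+/+ mice too, and its effects differed by -0.14 (standard error 0.59).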

How the data were processed

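Of the 24 poly(A)-selected RNA-seq libraries, the 12 of CD45+ cells were fitted, and 6 of them, each a sample of its own in the labels, were compared. Per the methods and labels, the authors used cutadapt for trimming, STAR for alignment to mm10 (GRCm38) and featureCounts for assignment to ENSEMBL genes, and deposited 1 table of raw counts for 39056 genes. Strand settings and tool versions are not given in the sources used here. All columns were mapped to samples by name. Gene names and positions came from GENCODE M21, and promoter sequences from RefSeq (GRCm38.p6).

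Genes were filtered with filterByExpr (minimum count 10, minimum total 15), scaled by TMM and tested with the two-sided quasi-likelihood test of edgeR 4.0.16 (R 4.3.3) with a mean for each of the 4 genotypes. P values were adjusted over all genes tested by the Benjamini-Hochberg method, with a threshold of 0.05. Standard errors were not taken from edgeR directly. Each is the absolute log2 fold change divided by the square root of the F statistic of this test. limma 3.58.1 and DESeq2 1.42.0 served as alternatives. The code was tested on simulated data. Total counts ran from 14.9 to 52.3 M per library, and in a single library 3 counts corresponded to 0.0506 to 0.163 CPM.

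Named genes were those that check genotype, sort and sex, then, since none was called, in each direction the 10 genes with the smallest unadjusted p among those whose groups did not overlap and whose higher mean was at least 5 CPM, and up to 4 members with the smallest unadjusted p of each list, plus 10 type 2 and tuft cell genes. *Anpep*, *Ap1m2*, *Birc3*, *Erf*, *Fcgbp*, *Il13ra2*, *Muc2*, *Pou2f3*, *Ptgs1*, *Rel*, *Retnlb*, *Rnf31*, *Stat6* and *Tnf* fall outside that rule and were named with their values seen. The members and the 41 lists (468 genes) were chosen with earlier results of these data known. The labels do not name the mouse of each sample, so p values measure only the spread between these samples.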

Additional observations from a re-analysis of the deposited data

How the results depend on the processing

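Each result was recomputed under 17 alternatives. The count of 0 called genes held in 14 of them, including every fit without 1 library, and did not under other tests. The likelihood ratio test of edgeR called 1 gene higher and 10 lower, its exact test 1 higher and 8 lower, and DESeq2 27 higher and 78 lower. For the difference between the *Hoil1* genotypes, the likelihood ratio test called 3 genes higher and 22 lower and DESeq2 25 higher and 64 lower, whereas the other alternatives called 0. The exact test was not run on that difference, as it compares a pair of groups. All 3 tests called *Muc3*, *Cdhr5*, *Clca1*, *Gsdmc4*, *Them6*, *Ap1m2* and *Igkv9-123*. DESeq2 gave *Ang4* no p value and did not call *Pla2g4c*, and both were called by both tests of edgeR. The cause was not tested. The 58 genes recomputed include each gene with a printed fold change. Many were named for a small p or for groups without overlap, which in itself favors a kept direction. Of the 58, 56 kept their direction under all alternatives, and this count is thus not separate support. The exceptions were *Nmur1*, which ran from -1.36 to 0.20 when each library was left out in turn, and *Klrg1*, which ran from -0.68 to 0.32 in those fits and was at 0.13 with sex as a covariate. Of 39 list medians, 22 had another sign in at least 1 setting. With the 6 *Hoil1*-/- libraries alone in the fit, 4 of 12 enterocyte genes were lower and 5 of 14 NF-κB genes higher at an unadjusted p under 0.05. Of all genes, 1.29% were lower and 0.898% higher in that fit. At an unadjusted p under 0.05, limma voom with quality weights put 1 goblet gene of 11 and 1 enterocyte gene of 14 lower, against 5.29% of all genes. It put 12 NF-κB genes of 14 higher, against 5.63% of all genes. Depth was not even: library 17 had 14.9 M counts, and genes with no count in its group were limited by it most. No paired analysis was possible because the labels do not name the mouse of each sample or say which mice were littermates.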

Other observations

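The epithelial genes named above were also counted in the CD45- libraries of the same series, which include epithelial cells. There, *Ang4* was at 1076, 1334 and 995 CPM in *Hoil1*-/-*Il4ra*f/f libraries 1, 2 and 23 and at 20.2, 8.15 and 199.9 CPM in *Hoil1*-/-*Il4ra*ΔIEC libraries 3, 4 and 5. *Pla2g4c* was at 154, 503 and 154 CPM and 6.78, 1.53 and 8.42 CPM, and *Gsdmc4* at 236, 263 and 208 CPM and 24.3, 7.79 and 51.7 CPM in the same order. For these 3 genes the groups did not overlap in CD45- cells, where the share of all genes without overlap was not counted. The same held for *Clca1*, at 10010, 8791 and 2311 CPM and 696, 158 and 1732 CPM. The groups overlapped for *Muc3*, *Cdhr5*, *Tff3*, *Fcgbp*, *Spink4*, *Apoa1*, *Apoa4* and *Epcam*. *Muc3*, for example, was at 1152, 896 and 26.6 CPM and 68.3, 35.4 and 236 CPM. *Epcam*, shared by all epithelial cells, was at 1467, 1305 and 548 CPM and 395, 177 and 676.5 CPM. How much of each CD45- library was epithelium was not measured apart from such genes, and its part in these values was not tested. For the 8 overlapping genes library 23, which the authors left out of their sample list, was the lowest of its group, and without it the groups still overlapped for *Tff3* and *Apoa4*. In the *Hoil1*+/+ CD45- libraries, *Pla2g4c* was at 0.569, 0.201 and 2.21 CPM in *Il4ra*f/f and 3.14, 0.441 and 0.464 CPM in *Il4ra*ΔIEC mice. These levels were not tested here, and the labels do not say which CD45+ and CD45- libraries share a mouse.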
